A study of Homo sapiens with 18 samples.

Results

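The genes described here are 34 genes of cholesterol and fatty acid synthesis: 4 regulators of sterol-responsive transcription, 8 enzymes from acetoacetyl-CoA to farnesyl and geranylgeranyl diphosphate, 11 enzymes from squalene to cholesterol, 8 genes of fatty acid and glycerolipid synthesis, and 3 genes of cholesterol uptake and movement. They were chosen by symbol from the count table, which holds 58870 genes, and all 34 were among the 17743 genes tested. Polyadenylated RNA had been sequenced from HEK293T cells, a human embryonic kidney line, in 6 groups of 3 libraries. Each group received a plasmid that carried 1 of 3 base editors and 1 guide RNA. Base editors are fusions of a DNA deaminase with a Cas9 that nicks only 1 strand, and they convert adenines or cytosines near the site that the guide RNA specifies. SaABE joined ABE8e to the Staphylococcus aureus nickase, SpABE joined ABE8e to the Streptococcus pyogenes nickase, and SpCBE joined evoCDA1 to the S. pyogenes nickase. For each editor, the NRF1 guide was aimed at a splice site of NRF1 exon 7 so that the exon would be skipped, and the control guide was aimed at an intergenic site. All 6 groups were transfected as 750000 cells in serum-containing medium, selected with puromycin for 48 hours and lysed 72 hours after transfection. The cells of each library were a transfected pool and not a clone, and the share of edited cells was not analysed here. In bulk RNA, fewer cells of a type and less RNA per cell cannot be told apart.

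Sterol synthesis is controlled by feedback. The transcription factors SREBP1 and SREBP2, made from SREBF1 and SREBF2, are held in the endoplasmic reticulum by SCAP and INSIG proteins when membrane cholesterol is plentiful, and are carried to the Golgi and cut free when it falls. The freed factors then raise the genes of the mevalonate and sterol pathways and of fatty acid synthesis. Cholesterol that enters from lipoproteins is freed in the lysosome by the acid lipase LIPA and passed by NPC2 to the membrane protein NPC1, which exports it to the rest of the cell. NRF1 binds palindromic GC-rich elements near gene starts and is best known for its control of nuclear genes of mitochondria.

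The 3 NRF1 guides are shown because they define the perturbation. Each is written 5′ to 3′, with bases that fall in exon 7 in capitals and intron bases in lower case.
SaABE guide, splice donor: ttactcacCTGGATAAGTGA
SpABE guide, splice acceptor: gtgacagGTTTCATGGACCC
SpCBE guide, splice acceptor: GAAACctgtcaccaaatgac
On hg38 these lay at chr7:129710560-129710579 on the minus strand, chr7:129710367-129710386 on the plus strand and chr7:129710359-129710378 on the minus strand, and each matched the chromosome once. Exon 7 of the 11 exons of NRF1 spans chr7:129710374-129710571, 198 bases. The SaABE guide covered 12 exon bases and 8 bases of the downstream intron. The SpABE guide covered 13 exon bases and 7 of the upstream intron, and the SpCBE guide 5 exon bases and 15 of the upstream intron.

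Levels are given as CPM, estimated counts as a share of the library after TMM scaling of library sizes, which compares 1 gene between libraries and not genes of different length. A member is said to have risen or fallen where the adjusted p of edgeR's quasi-likelihood test (Benjamini-Hochberg over all 17743 genes) was under 0.05, and is called where its absolute log2 fold change was also over 0.5. Libraries held 28101094 to 40687447 estimated counts. Mitochondrial transcripts took 0.939% to 1.19% of counts and the 10 most abundant genes 3.86% to 6.61%, with the highest top-10 shares in SaABE libraries. Among pairs of replicates, SaABE intergenic 1 and 2 differed most, with a chi-square per degree of freedom of 8.05 over genes of at least 10 CPM. The other pairs had 1.99 to 5.49. NEFM, NEFL, INA, VIM, PAX2 and LHX1, genes found in HEK293 lines, summed to 804 to 960 CPM in NRF1-guide libraries and 865 to 1005 CPM in intergenic-guide libraries. VIM made up most of that sum, at 710 CPM with the NRF1 guide and 714 CPM with the intergenic guide. INA and NEFL, which encode neurofilament proteins, fell by 0.50 (edgeR adjusted p = 1.91e-13) and 0.36 (edgeR adjusted p = 6.1e-11) on the log2 scale over all 3 editors, and passed in each editor. The part of these changes in the results below was not tested. Of 7 kidney tubule and podocyte markers, 6 were under 1 CPM in every library, as were 6 of 7 hepatocyte markers, 4 of 5 adipocyte markers, 5 of 7 fibroblast markers and 4 of 6 blood markers. The fibroblast collagen gene COL1A1 fell by 0.18 (edgeR adjusted p = 0.000411), and of the nuclear-retained RNAs MALAT1 rose by 0.16 (edgeR adjusted p = 0.0039) and KCNQ1OT1 fell by 0.24 (edgeR adjusted p = 0.0116).

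Total NRF1 RNA was 40.3, 39.4 and 41.0 CPM with the SaABE NRF1 guide, against 33.1, 32.1 and 31.5 CPM with its intergenic guide. It was 35.7, 37.5 and 41.6 CPM with the SpABE NRF1 guide, against 26.7, 28.8 and 28.5 CPM in its controls. It was 38.3, 39.5 and 43.8 CPM with the SpCBE NRF1 guide, against 24.4, 25.0 and 26.0 CPM in its controls. NRF1-guide libraries were above all intergenic-guide libraries, as in 1.44% of all genes tested, and the log2 difference over all 3 editors was 0.49 ± 0.04 (SE, n = 9 against 9, edgeR adjusted p = 3.61e-09). A count over the whole gene does not measure skipping of exon 7, so this value does not check the edit itself.

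The cholesterol and fatty acid genes moved in both directions with the NRF1 guide. NPC1 fell with every editor, to 70.8% of its control level over all 3, and PMVK rose with every editor. Every other member that passed the test over all 3 editors had an absolute log2 fold change of at most 0.19. Of the 34 members 10 rose, where 20.6% of all genes tested rose, and 7 fell, where 18.8% of all genes fell. Without a term for the editor in the fit, 2 rose and 4 fell. None was called, against 5.50% of all genes. The median log2 fold change was 0.02 for the 34 members and 0.01 for all genes tested, and the median absolute change was 0.07 for the members and 0.11 for all genes. Every member was at 13.4 CPM or more in each library, whereas 10023 of the 17743 genes tested averaged at least 10 CPM. Shares and medians of all genes, here and below, are therefore not matched to the members for level. Signs were the same in all 3 editors for 17 members, 9 higher and 8 lower, and were mixed for the other 17. Only NPC1, PMVK and SQLE passed the test in each of the 3 editors.

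**Figure D1:**
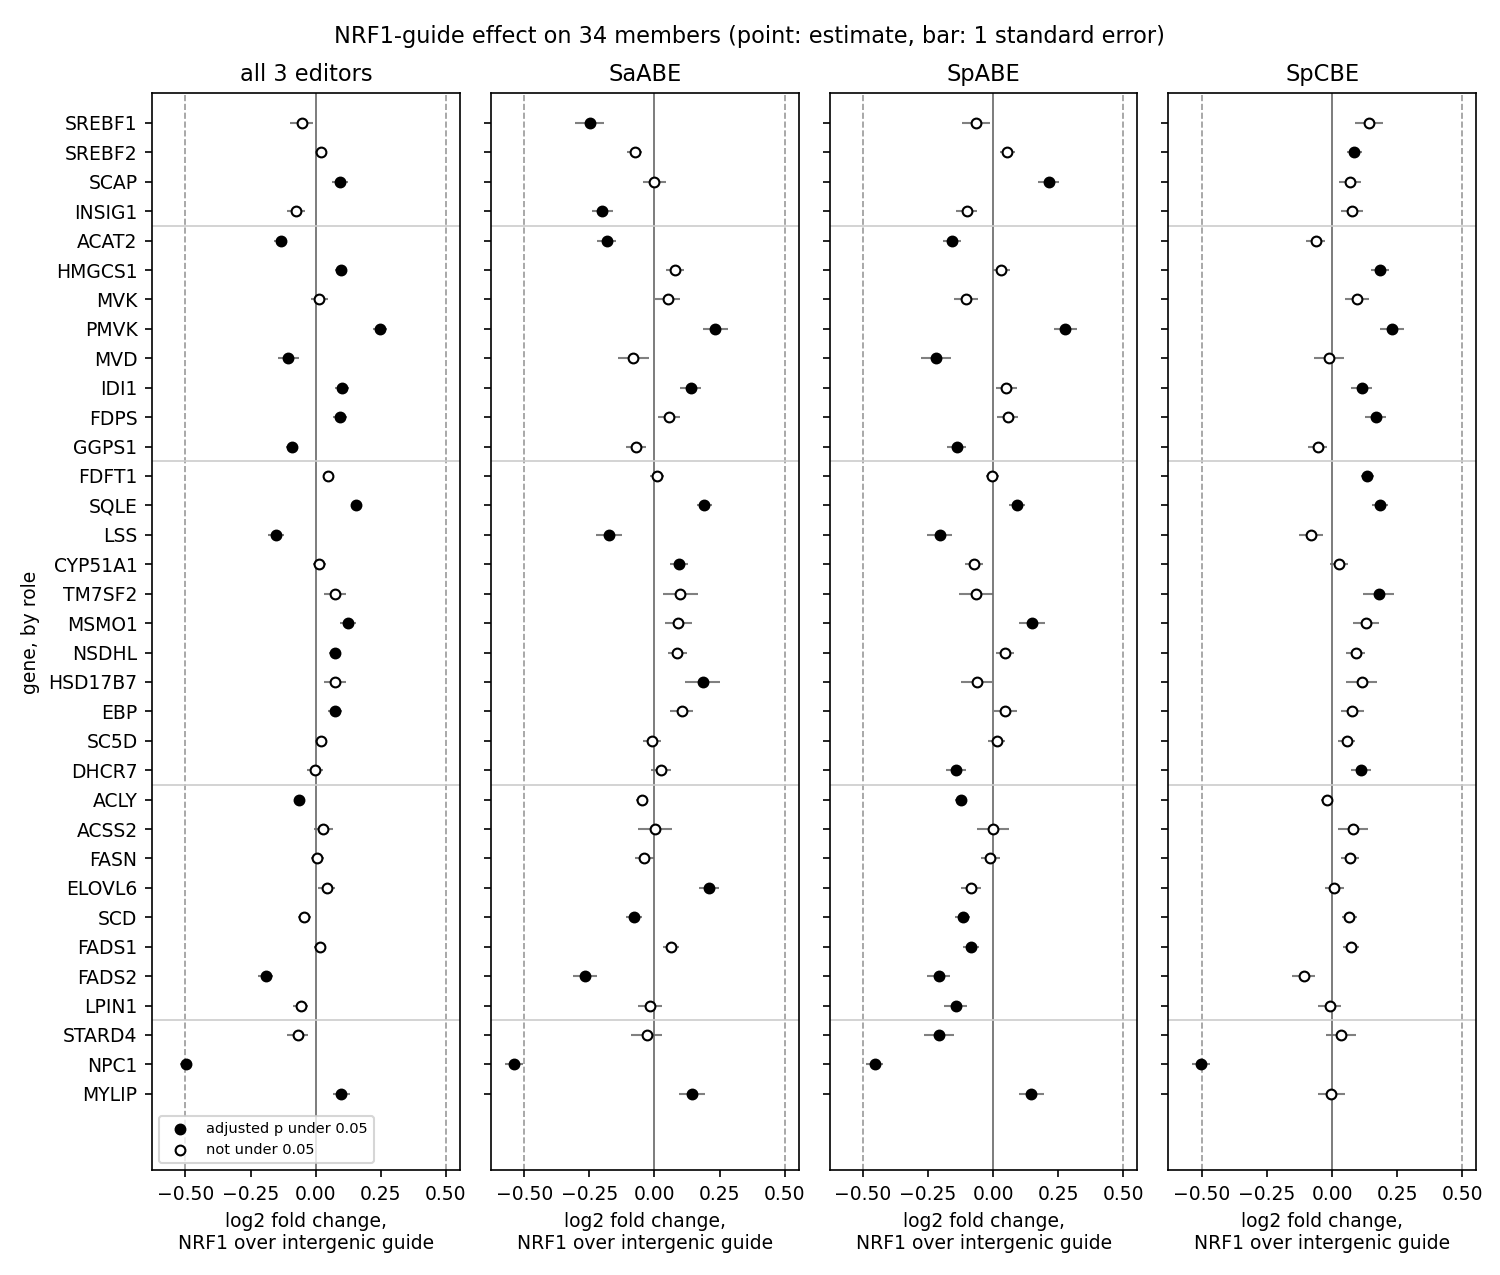
Log2 fold change of each of the 34 members, NRF1 guide over intergenic guide, over all 3 editors and for each editor, with a bar of 1 standard error. Filled points had an adjusted p under 0.05, dashed lines mark 0.5 in each direction, and NPC1 lies at or near the lower line in all 4 panels while other members stay between -0.27 and 0.28.

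NPC1, which moves cholesterol out of the lysosome, showed the largest change of the 34. It was at 53.8, 51.3 and 54.3 CPM in SaABE NRF1-guide libraries, against 78.3, 74.7 and 78.7 CPM in SaABE intergenic-guide libraries. With SpABE the NRF1-guide libraries had 58.4, 53.7 and 57.2 CPM, against 76.5, 77.5 and 78.3 CPM in their controls. With SpCBE they had 61.8, 61.3 and 59.5 CPM, against 86.0, 86.5 and 86.3 CPM in their controls. The groups did not overlap, since the highest of 9 NRF1-guide libraries, 61.8 CPM, was below the lowest of 9 intergenic-guide libraries, 74.7 CPM. Of all genes tested, 5.25% had all 9 NRF1-guide libraries below all 9 controls. The log2 fold change was -0.50 ± 0.02 over all 3 editors (SE, n = 9 against 9, edgeR adjusted p = 2.53e-15), -0.54 ± 0.04 with SaABE (n = 3 against 3, edgeR adjusted p = 1.14e-11), -0.46 ± 0.03 with SpABE (edgeR adjusted p = 1.18e-10) and -0.50 ± 0.03 with SpCBE (edgeR adjusted p = 1.56e-11). The size sits on the fold threshold. To 3 decimals the value was -0.499 over all 3 editors and -0.503 with SpCBE, so NPC1 was called in SaABE and SpCBE, where 4.81% and 3.61% of all genes were called lower, and missed the call over all 3 editors and in SpABE, where 4.37% and 4.70% were called lower. In SpCBE the change was past the fold threshold under 2 of 5 other settings and without 13 of 18 libraries, each left out in turn, and over all 3 editors under 0 of 6 settings and without 5 of 18 libraries. Its adjusted p stayed under 0.05 in all of these. NPC1 is read from the minus strand and shares 619 of its 9705 annotated exon bases with RMC1 on the opposite strand. RMC1 had a log2 fold change of 0.03 (edgeR adjusted p = 0.296).

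Of the other 2 genes of this role, MYLIP rose and STARD4 did not pass over all 3 editors. MYLIP, a ubiquitin ligase that lowers the lipoprotein receptor, rose by 0.10 ± 0.03 on the log2 scale over all 3 editors (edgeR adjusted p = 0.0191), from rises of 0.14 with SaABE and 0.15 with SpABE and a difference of -0.00 with SpCBE (edgeR adjusted p = 0.984). The pooled rise missed the threshold with no filter on low counts (edgeR adjusted p = 0.0514). The SaABE rise was lost without its NRF1 replicate 1 or 2 or its intergenic replicate 1 or 3 (edgeR adjusted p 0.0544 to 0.109), and the SpABE rise without its NRF1 replicate 2 or 3 or its intergenic replicate 3 (edgeR adjusted p 0.0583 to 0.0685). STARD4, a cytosolic sterol carrier, fell by 0.21 with SpABE (edgeR adjusted p = 0.00801), but not without the first SpABE intergenic library (edgeR adjusted p = 0.0588). It had -0.07 over all 3 editors (edgeR adjusted p = 0.200).

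**Figure D2:**
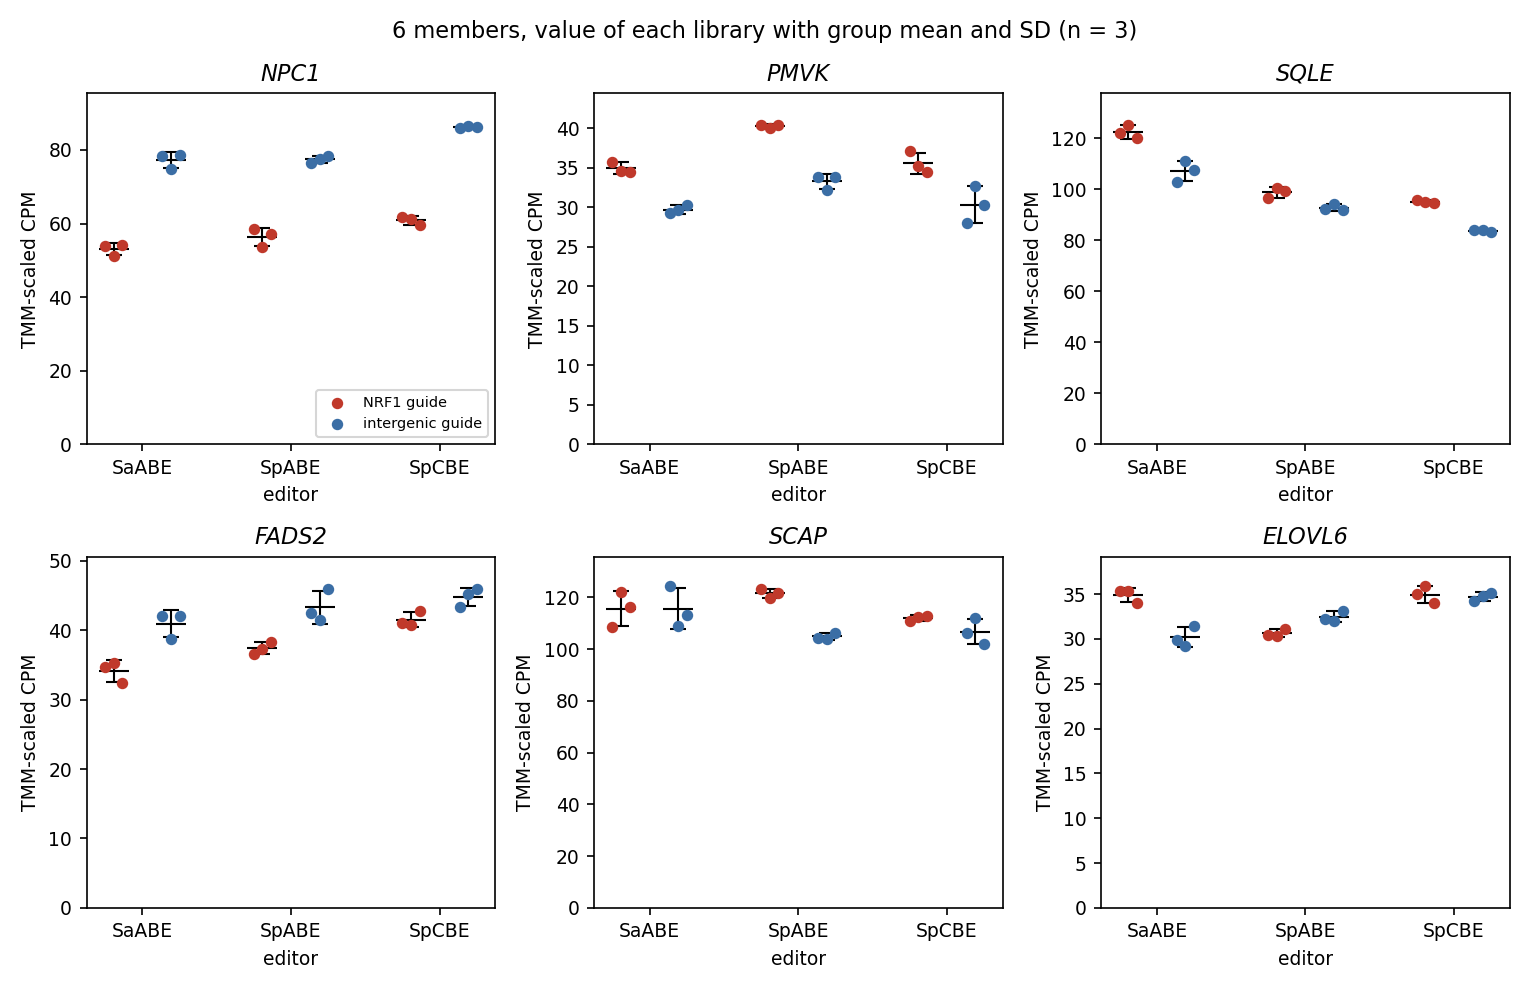
TMM-scaled CPM of 6 members in each library by editor, with NRF1-guide libraries in red on the left and intergenic-guide libraries in blue on the right of each pair, and the mean and SD of 3 libraries. NPC1, PMVK, SQLE and FADS2 separate by guide within each editor, and NPC1 and PMVK also across editors. Within an editor, 18.5% to 22.8% of all genes tested separated in a given direction. SCAP separates in SpABE alone, and ELOVL6 lies higher with the NRF1 guide in SaABE and lower in SpABE.

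Among the mevalonate enzymes, PMVK stood out. This kinase adds the second phosphate to mevalonate. It was at 35.8, 34.5 and 34.5 CPM in SaABE NRF1-guide libraries, against 29.2, 29.6 and 30.3 CPM in their controls. With SpABE the values were 40.4, 40.1 and 40.4 CPM with the NRF1 guide, against 33.9, 32.2 and 33.8 CPM with the intergenic guide. With SpCBE they were 37.1, 35.2 and 34.5 CPM with the NRF1 guide, against 28.0, 32.7 and 30.3 CPM with the intergenic guide. All 9 NRF1-guide libraries, the lowest at 34.5 CPM, lay above all 9 intergenic-guide libraries, the highest at 33.9 CPM, a separation found in 1.44% of all genes tested. The log2 fold change was 0.25 ± 0.03 over all 3 editors (SE, n = 9 against 9, edgeR adjusted p = 1.06e-07), and 0.23, 0.28 and 0.23 with SaABE, SpABE and SpCBE. PMVK passed the test in these 4 comparisons under every other setting and without each library.

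The other 7 enzymes of this stretch moved in both directions. Of all 8, 4 rose, 3 fell and 1 did not pass over all 3 editors, where 20.6% of all genes rose and 18.8% fell. HMGCS1, which makes HMG-CoA, rose by 0.10, IDI1, the isopentenyl diphosphate isomerase, by 0.10, and FDPS, the farnesyl diphosphate synthase, by 0.09. ACAT2, the cytosolic thiolase that makes acetoacetyl-CoA, fell by 0.13 (edgeR adjusted p = 7.1e-05), MVD, the mevalonate diphosphate decarboxylase, by 0.10 and GGPS1, which makes geranylgeranyl diphosphate, by 0.09. MVK, the mevalonate kinase that acts just before PMVK, had 0.01 (edgeR adjusted p = 0.779). The fall of MVD was lost when any 1 of 9 libraries was left out, with edgeR adjusted p up to 0.0939 without the third SpABE intergenic library. IDI1 and FDPS have named pseudogenes, GGPS1 shares 1422 of its 3809 exon bases with another gene model on its strand, ACAT2 shares 454 of its 2639 exon bases with TCP1 on the opposite strand and MVK 225 of 9018 with MMAB on the opposite strand, so the counts of these 5 genes are uncertain.

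Of the 11 enzymes from squalene onward, 4 rose, 1 fell and 6 did not pass over all 3 editors. Of all genes tested, 20.6% rose and 18.8% fell. SQLE, the squalene monooxygenase and a slow step of the pathway, was at 122.0, 125 and 119.8 CPM in SaABE NRF1-guide libraries, against 103, 111 and 107 CPM in their controls. With SpABE it was at 96.3, 101 and 99.4 CPM with the NRF1 guide, against 92.2, 94.3 and 91.7 CPM with the intergenic guide. With SpCBE it was at 95.8, 95.0 and 94.4 CPM with the NRF1 guide, against 83.8, 84.0 and 83.3 CPM with the intergenic guide. Within each editor the groups did not overlap, where 20.9%, 21.7% and 20.3% of all genes lay wholly above in SaABE, SpABE and SpCBE. Across editors the groups overlapped, since SaABE controls lay above the NRF1-guide libraries of both other editors. The log2 fold change was 0.16 ± 0.02 over all 3 editors (edgeR adjusted p = 1.27e-06), 0.19 with SaABE, 0.09 with SpABE and 0.18 with SpCBE. The SpABE rise was lost without its NRF1 replicate 2 or 3 or its intergenic replicate 1 (edgeR adjusted p 0.0879, 0.0651 and 0.0562).

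MSMO1, a C4-demethylation oxidase, rose by 0.13 (edgeR adjusted p = 0.00193), EBP, the sterol isomerase, by 0.08 and NSDHL, a decarboxylating dehydrogenase, by 0.07. The rise of EBP was lost without the first SaABE NRF1 library (edgeR adjusted p = 0.0543) or the second SpABE intergenic library (edgeR adjusted p = 0.0539). LSS, the cyclase that folds squalene epoxide into lanosterol, moved the other way from SQLE, the step before it. LSS averaged 47.5 ± 3.55, 44.2 ± 2.11 and 52.9 ± 2.78 CPM in SaABE, SpABE and SpCBE NRF1-guide libraries, against 53.5 ± 0.844, 51.0 ± 1.42 and 55.8 ± 1.58 CPM in the matching intergenic-guide libraries (SD, n = 3 each). It fell by 0.15 over all 3 editors (edgeR adjusted p = 0.000281). FDFT1, CYP51A1, TM7SF2, HSD17B7, SC5D and DHCR7 lay between -0.00 and 0.08 over all 3 editors. CYP51A1 and HSD17B7 have named pseudogenes, and CYP51A1 shares 2844 of its 4171 exon bases with a same-strand gene model, as EBP does 644 of its 1768.

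Fatty acid genes gave no rise and 2 falls among 8 over all 3 editors, where 20.6% of all genes rose and 18.8% fell. FADS2, the delta-6 desaturase of polyunsaturated fatty acids, was at 34.7, 35.3 and 32.3 CPM with the SaABE NRF1 guide, against 42.1, 38.7 and 42.1 CPM with its intergenic guide. With SpABE it was at 36.6, 37.3 and 38.3 CPM with the NRF1 guide, against 42.5, 41.4 and 45.9 CPM with the intergenic guide. With SpCBE it was at 41.1, 40.8 and 42.7 CPM with the NRF1 guide, against 43.4, 45.2 and 45.9 CPM with the intergenic guide. The groups did not overlap within any editor, where 19.1%, 22.8% and 18.5% of all genes lay wholly below in SaABE, SpABE and SpCBE. Across editors they overlapped. The log2 fold change was -0.19 ± 0.03 over all 3 editors (edgeR adjusted p = 1.44e-05), -0.27 with SaABE, -0.21 with SpABE and -0.11 with SpCBE, where it did not pass (edgeR adjusted p = 0.0773). FADS1, the delta-5 desaturase next to it on the opposite strand, had 0.02 (edgeR adjusted p = 0.604), and the genes share 490 exon bases. ACLY, the citrate lyase that supplies cytosolic acetyl-CoA, fell by 0.06 (edgeR adjusted p = 0.00456). FASN, SCD, ELOVL6, ACSS2 and LPIN1 lay between -0.06 and 0.04 and did not pass.

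Of the 4 regulators only SCAP passed over all 3 editors, and it rose, where 20.6% of all genes rose and 18.8% fell. Its rise of 0.09 ± 0.03 (edgeR adjusted p = 0.0176) was lost with a replicate block (edgeR adjusted p = 0.0554) or without the editor term (edgeR adjusted p = 0.0851). SCAP, the escort of SREBP, was at 109, 122.0 and 116 CPM with the SaABE NRF1 guide, against 124, 109 and 113 CPM with its intergenic guide, and the groups overlapped. With SpABE it was at 123, 119.7 and 122 CPM with the NRF1 guide, against 104, 104 and 106 CPM with the intergenic guide, with no overlap, where 21.7% of all genes lay wholly above. With SpCBE it was at 111, 113 and 113 CPM with the NRF1 guide, against 106, 112 and 102 CPM with the intergenic guide, and the groups overlapped. The log2 fold change was 0.00 with SaABE, 0.21 with SpABE (edgeR adjusted p = 0.000277) and 0.07 with SpCBE. SREBF1, SREBF2 and INSIG1 had -0.05, 0.02 and -0.08 over all 3 editors and did not pass.

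The number of members that moved differed from editor to editor. With SaABE 7 rose and 7 fell, where 16.9% of all genes rose and 15.5% fell. With SpABE 5 rose and 12 fell, where 15.4% rose and 17.3% fell. With SpCBE 9 rose and 1 fell, where 11.0% rose and 12.0% fell. Called members numbered 1 with SaABE, 0 with SpABE and 1 with SpCBE, against 6.05%, 6.41% and 4.45% of all genes. The median log2 fold change of the 34 was 0.01 with SaABE, -0.07 with SpABE and 0.07 with SpCBE, against 0.01, -0.00 and 0.01 for all genes tested. Each editor has its own controls, so the 3 effects compare separate libraries. Their tests shared the filter, the scaling and 1 estimate of spread over all 18 libraries, so these counts are not independent. All 3 NRF1-guide libraries lay above all 3 controls for 8 members and below them for 10 with SaABE, where 20.9% and 19.1% of all genes did. With SpABE 5 lay above and 13 below, where 21.7% and 22.8% did, and with SpCBE 18 lay above and 2 below, where 20.3% and 18.5% did. Counts rest on many small changes: 3 of the 7 SaABE rises, 2 of the 5 SpABE rises and 5 of the 9 SpCBE rises passed whichever library was left out, and likewise 5 of 7, 9 of 12 and 1 of 1 falls. Without the first SaABE NRF1 library or the first SaABE intergenic library 3 members rose with SaABE, and without the third SaABE intergenic library 4 did. Without the second SpABE NRF1 library 2 members rose with SpABE, and without the third SpABE NRF1 library or the first SpABE intergenic library 3 did.

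The difference of the NRF1-guide effect between editors was tested directly, and it passed in 16 of the 102 member tests. These differences share libraries with each other and with the effects above. For SaABE minus SpABE the effect on 4 members was higher and on 2 lower, where 6.37% and 5.33% of all genes were. Between SaABE and SpCBE 1 was higher and 3 lower, where 2.02% and 2.07% were, and between SpABE and SpCBE 0 were higher and 6 lower, where 4.54% and 4.42% were. None was called, against 1.56%, 0.614% and 1.43% of all genes. With the third SpABE intergenic library left out, the effect of 5 members was lower in SaABE than in SpCBE. The 4 members higher in SaABE than in SpABE were 1 or 2 when 1 of these libraries was left out: any of the 6 SpCBE libraries, NRF1 replicate 3 or intergenic replicate 1 of SaABE, or NRF1 replicate 3 or intergenic replicate 2 or 3 of SpABE. The 2 lower there were 0 without NRF1 replicate 1 or intergenic replicate 1 of SaABE or intergenic replicate 2 of SpABE, and 1 without NRF1 replicate 3 or intergenic replicate 3 of SaABE or NRF1 replicate 1, 2 or 3 or intergenic replicate 1 of SpABE. The 1 member higher in SaABE than in SpCBE, ELOVL6, was lost when 1 of these was left out: any SpCBE library, NRF1 or intergenic replicate 1 or 2 of SaABE, or intergenic replicate 3 of SpABE. The count of 6 lower in SpABE than in SpCBE was 10 without the first or second SaABE intergenic library and 3 without the third SpABE NRF1, the first or the third SpCBE NRF1 or the first SpCBE intergenic library.

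Of the 4 regulators, SREBF1, INSIG1 and SREBF2 differed between SaABE and SpCBE and SCAP did not pass, with a difference of -0.07 (edgeR adjusted p = 0.599). SREBF1 averaged 25.9 ± 1.35 CPM with the SaABE NRF1 guide, against 30.8 ± 2.45 CPM in its controls, and 27.7 ± 0.390 CPM with the SpCBE NRF1 guide, against 25.1 ± 0.421 CPM in its controls (SD, n = 3 each). It fell by 0.25 with SaABE (edgeR adjusted p = 0.00124) and had 0.14 with SpCBE (edgeR adjusted p = 0.0590), a difference of -0.39 ± 0.08 (SE, edgeR adjusted p = 0.00412). INSIG1, which retains SCAP and is itself a target of SREBP, was at 125, 119.4 and 122.0 CPM with the SaABE NRF1 guide, against 131, 149 and 141 CPM in its controls. It was at 118, 124 and 113 CPM with the SpABE NRF1 guide, against 122, 131 and 128 CPM in its controls, and at 99.6, 102 and 101 CPM with the SpCBE NRF1 guide, against 96.3, 98.5 and 92.0 CPM in its controls. NRF1-guide libraries were all below their controls in SaABE, where 19.1% of all genes were, and overlapped them in SpABE. They were all above them in SpCBE, where 20.3% of all genes were. INSIG1 fell by 0.20 with SaABE and had 0.08 with SpCBE (edgeR adjusted p = 0.203), a difference of -0.28 ± 0.06 (edgeR adjusted p = 0.00665). Both differences passed under every other setting and without each library. SREBF2 had -0.08 with SaABE, 0.05 with SpABE and 0.09 with SpCBE, and the difference was -0.13 for SaABE minus SpABE and -0.16 for SaABE minus SpCBE.

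Among the enzymes, DHCR7 and SCD differed between SpABE and SpCBE, and ELOVL6 between SaABE and SpABE. DHCR7, the last reductase of cholesterol synthesis, averaged 98.9 ± 3.11 CPM with the SpABE NRF1 guide, against 109 ± 2.77 CPM in its controls, and 96.1 ± 5.03 CPM with the SpCBE NRF1 guide, against 88.9 ± 1.64 CPM in its controls (SD, n = 3 each). The SpABE effect minus the SpCBE effect was -0.25 ± 0.05 (edgeR adjusted p = 0.00306). SCD, the stearoyl-CoA desaturase, averaged 504 ± 15.0 CPM with the SpABE NRF1 guide, against 546 ± 11.1 CPM in its controls, and 421 ± 14.6 CPM with the SpCBE NRF1 guide, against 402 ± 6.49 CPM in its controls, a difference of -0.18 ± 0.04 (edgeR adjusted p = 0.00630). ELOVL6, which lengthens palmitate, rose with SaABE to 34.9 ± 0.753 CPM, against 30.2 ± 1.12 CPM in its controls, and was at 30.6 ± 0.435 CPM with the SpABE NRF1 guide, against 32.5 ± 0.610 CPM in its controls, a difference of 0.29 ± 0.06 (edgeR adjusted p = 0.00100). SREBF1, INSIG1, DHCR7, SCD and ELOVL6 gave the 5 of 16 differences, each named above, that passed whichever library was left out. SREBF1 shares 556 of its 8234 exon bases with RAI1 on the opposite strand, and SCD has a named pseudogene, so their counts are uncertain. RAI1 fell by 0.10 over all 3 editors (edgeR adjusted p = 0.00245).

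**Figure D3:**
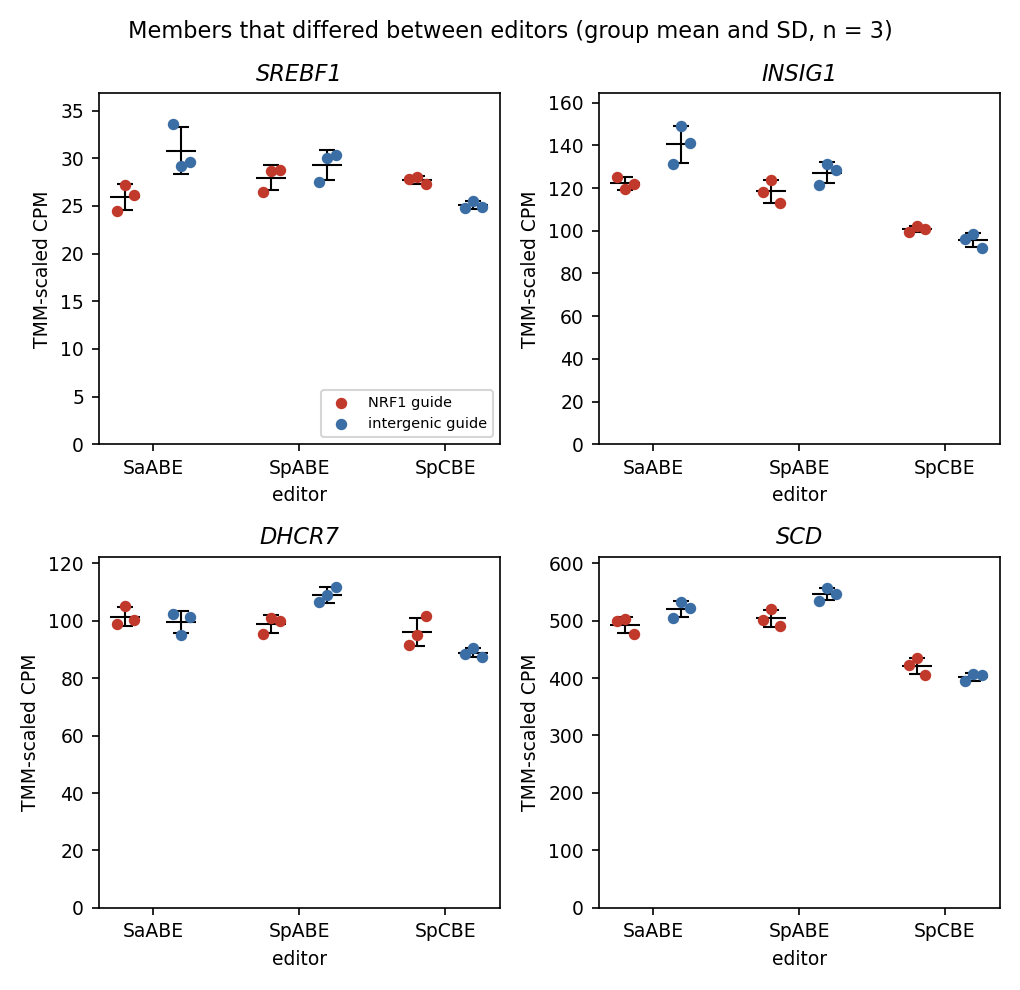
TMM-scaled CPM of 4 members in each library by editor, NRF1-guide libraries in red on the left and intergenic-guide libraries in blue on the right of each pair, with the mean and SD of 3 libraries. In SREBF1 and INSIG1 the NRF1-guide mean lies below its controls in SaABE and above them in SpCBE, and INSIG1 and SCD are lower in both SpCBE groups than in the other editors.

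The intergenic controls of the 3 editors also differed in these genes. SaABE against SpABE controls had 5 members higher and 11 lower, where 19.3% and 19.1% of all genes were. SaABE against SpCBE controls had 14 higher and 8 lower, where 20.1% and 20.6% were. SpABE against SpCBE controls had 16 higher and 6 lower, where 17.7% and 17.8% were. Without the first or the third SpABE intergenic library or the second SpCBE intergenic library, 3 were lower. Of the 34 members 64.7% passed in each of the last comparisons, against 40.6% and 35.5% of all genes, which were not matched for level. The median log2 difference of the 34 was -0.03, 0.05 and 0.10 in the 3 comparisons, against 0.00, -0.01 and -0.00 for all genes. The 3 comparisons share the control libraries pairwise. Editor, guide sequence and transfection cannot be told apart here.

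INSIG1, SCD, MYLIP and HSD17B7 differed most between controls. INSIG1 was the 1 member called, at 131, 149 and 141 CPM in SaABE controls, against 96.3, 98.5 and 92.0 CPM in SpCBE controls, a log2 difference of 0.55 ± 0.04 (SE, n = 3 against 3, edgeR adjusted p = 1.44e-10), where 3.80% of all genes were called higher. SpABE controls, at 122, 131 and 128 CPM, were also above all SpCBE controls, by 0.41 ± 0.04, as were those of 3963 of the 17743 genes tested. SCD was higher than in SpCBE controls by 0.37 in SaABE and 0.44 in SpABE controls, SQLE by 0.36 and 0.15, HMGCS1 by 0.22 and 0.31, and SC5D, the lathosterol desaturase, by 0.20 and 0.36. MYLIP, which is raised by sterols through the liver X receptors, was also higher than in SpCBE controls, by 0.39 in SaABE and 0.43 in SpABE controls. TM7SF2, a sterol reductase, had -0.28 in SaABE and -0.33 in SpABE controls relative to SpCBE controls, and ACSS2, the cytosolic acetyl-CoA synthetase, -0.30 and -0.29. HSD17B7, a ketosteroid reductase, had -0.46 in SaABE controls relative to both SpABE and SpCBE controls. NPC1 had -0.16 in both SaABE and SpABE controls relative to SpCBE controls. All of these passed the test.

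**Figure D4:**
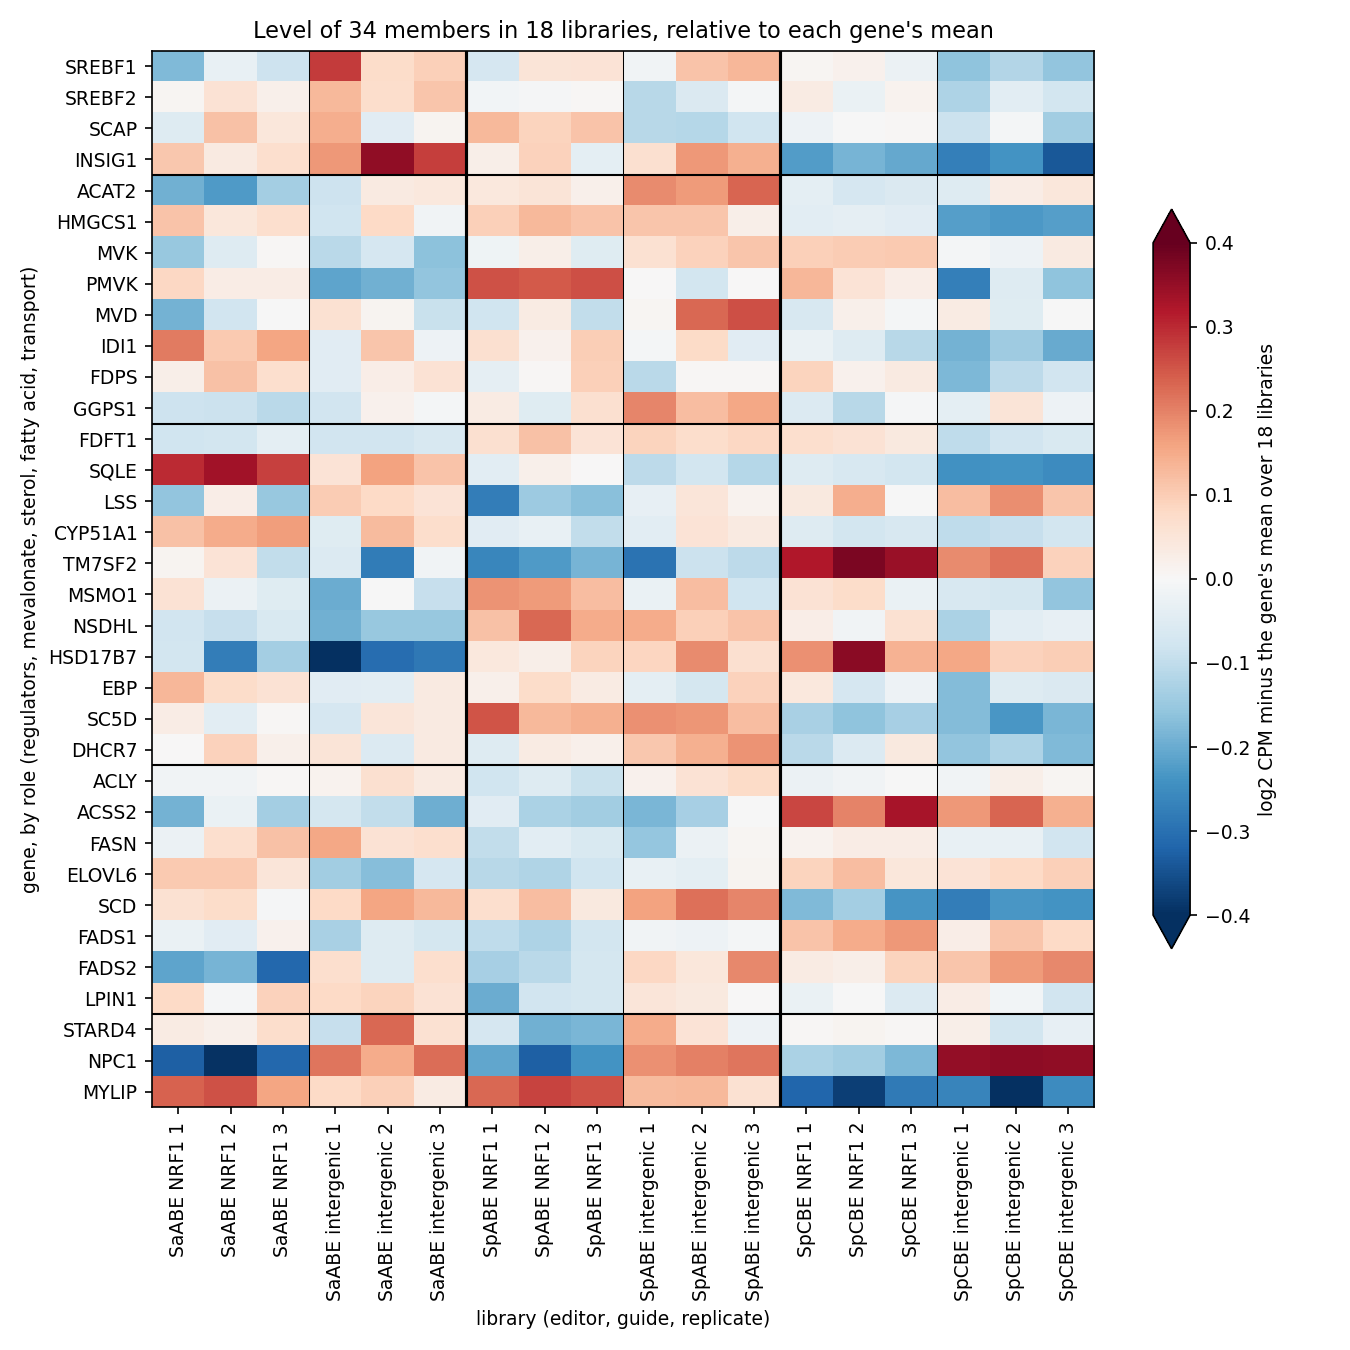
Log2 CPM of the 34 members (rows, by role) in 18 libraries (columns), minus each gene's mean over all libraries, with colours cut at 0.4 in each direction. Blocks of 6 columns are editors, NRF1 guide left of intergenic guide. Rows such as INSIG1, SCD, MYLIP and TM7SF2 change colour between editors, and NPC1 changes colour between guides.

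Genes that surround the 34 in the pathway were counted in 4 lists. Of 9 genes of sterol export and storage 4 rose and 3 fell over all 3 editors, and 2 were called, where 20.6%, 18.8% and 5.50% of all genes did so. LIPA, the lysosomal acid lipase that acts upstream of NPC1, was at 44.4, 40.9 and 43.4 CPM with the SaABE NRF1 guide, against 62.7, 68.8 and 67.2 CPM in its controls. With SpABE it was at 48.7, 47.0 and 49.2 CPM with the NRF1 guide, against 70.1, 71.1 and 69.3 CPM with the intergenic guide, and with SpCBE at 50.8, 50.8 and 49.8 CPM, against 76.3, 79.8 and 79.2 CPM. All 9 NRF1-guide libraries were below all 9 intergenic-guide libraries, as in 5.25% of all genes tested, and the log2 fold change was -0.60 ± 0.02 (edgeR adjusted p = 4.73e-16). The annotated span of LIPA on the minus strand covers 4 IFIT genes of the opposite strand. NPC2, the soluble partner of NPC1, rose by 0.19 ± 0.02 (edgeR adjusted p = 5.95e-07), so the 3 genes of the lysosomal route did not move together. ABCG1, a sterol exporter with low counts here, averaged 3.50 ± 0.380 CPM in NRF1-guide libraries and 5.44 ± 1.10 CPM in intergenic-guide libraries (SD, n = 9 each) and fell by 0.62 ± 0.07 (edgeR adjusted p = 1.34e-07), with overlap between the groups.

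**Figure D5:**
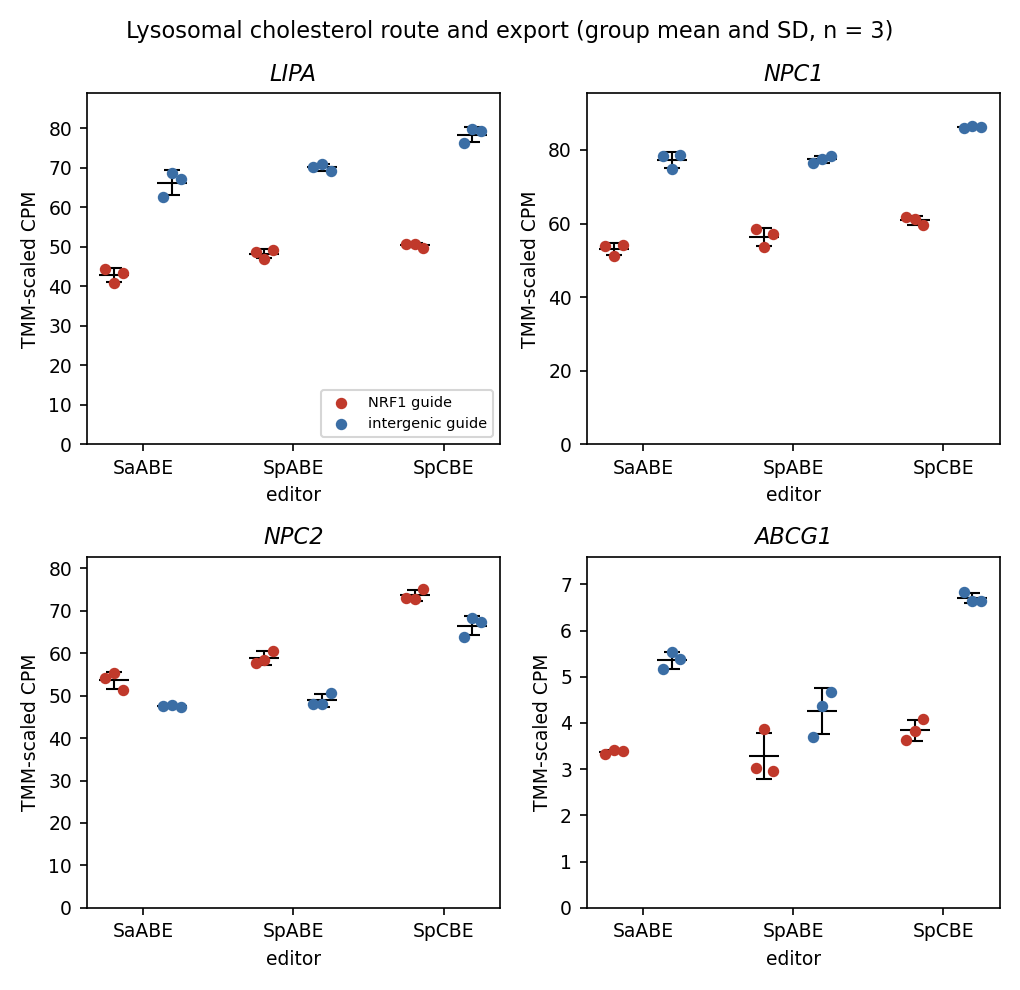
TMM-scaled CPM of LIPA, NPC1, NPC2 and ABCG1 in each library by editor, NRF1-guide libraries in red on the left and intergenic-guide libraries in blue on the right of each pair, with the mean and SD of 3 libraries. LIPA and NPC1 are lower with the NRF1 guide in each editor, with log2 fold changes of -0.60 and -0.50, and NPC2 is higher, with 0.19.

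The counts in the other lists can be read against the same 20.6% and 18.8%. Of 8 genes that process or degrade SREBP and its partners, 3 rose and 1 fell. SEC24D, a coat protein of vesicles that leave the endoplasmic reticulum, fell by 0.31 over all 3 editors (edgeR adjusted p = 8.93e-06), by 0.45 with SaABE and by 0.43 with SpCBE, and had -0.05 with SpABE (edgeR adjusted p = 0.389). Over all 3 editors RNF139, a ubiquitin ligase of the same membrane, rose by 0.13 (edgeR adjusted p = 0.00171). Of 9 genes that use isoprenoids, 2 rose and 1 fell: RABGGTB, the catalytic subunit that prenylates Rab proteins, fell by 0.30 (edgeR adjusted p = 2.09e-08), PDSS2 of the ubiquinone side chain rose by 0.14 and FNTA of farnesyltransferase by 0.07. Of 14 genes of fatty acid elongation and lipid assembly, 4 rose and 3 fell. TECR, the reductase of the elongation cycle, fell by 0.31 (edgeR adjusted p = 2.3e-08), ELOVL5, an elongase of polyunsaturated chains, by 0.17 (edgeR adjusted p = 5.81e-07), and SLC25A1, the mitochondrial citrate carrier, rose by 0.12. Of the genes named from these 3 lists, RNF139 and FNTA passed in SpABE alone among the editors, PDSS2 in SaABE alone and SLC25A1 in SpCBE alone.

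Promoters were read for the members from the RefSeq start sites on GRCh38.p14, from 250 bases before to 50 bases after each start, and 30 of the 34 members had a window. SQLE, FDFT1, ACAT2 and FASN are named only. Motifs were searched on both strands. The NRF1 site searched for was GCGC, then AT, AC or GT, then GCGC, and it was in the window of 0 of 30 members, against 3.34% of all 27305 genes with a window. A GC box, GGGCGG, was found in 29 of 30 members and 48.3% of all genes, and CCAAT in 22 of 30 members and 39.7% of all genes. The sterol element TCACCCCA was found in 2 members, MVK and SREBF2, and in 1.88% of all genes, and CACGTG in 4 members and 8.77% of all genes. The 27305 genes were not limited to those tested here and were not matched to the members for level. The absence of these letters from a window of 300 bases does not bear on binding elsewhere.

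The windows of NPC1 and PMVK are shown because these members separated the guides in every library, and the most upstream of 3 windows of LIPA because it holds an NRF1 site. They lie at chr18:23586457-23586756, chr1:154936670-154936969 and chr10:89414630-89414929, all on the minus strand. Capitals mark a GC box in any of the 3 and, in LIPA, also the NRF1 sites.
NPC1 promoter: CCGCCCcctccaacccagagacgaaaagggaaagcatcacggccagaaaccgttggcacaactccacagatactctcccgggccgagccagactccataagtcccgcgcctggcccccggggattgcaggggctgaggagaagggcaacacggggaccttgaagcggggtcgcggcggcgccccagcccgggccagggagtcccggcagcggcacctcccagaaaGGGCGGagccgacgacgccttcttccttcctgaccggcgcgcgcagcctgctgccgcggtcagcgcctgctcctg
PMVK promoter: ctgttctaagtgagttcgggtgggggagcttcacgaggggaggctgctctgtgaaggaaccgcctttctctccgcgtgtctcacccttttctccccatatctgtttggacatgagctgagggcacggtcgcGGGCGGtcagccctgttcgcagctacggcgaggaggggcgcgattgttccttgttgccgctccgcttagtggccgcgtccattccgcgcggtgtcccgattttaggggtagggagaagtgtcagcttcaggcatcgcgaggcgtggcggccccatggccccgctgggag
LIPA promoter: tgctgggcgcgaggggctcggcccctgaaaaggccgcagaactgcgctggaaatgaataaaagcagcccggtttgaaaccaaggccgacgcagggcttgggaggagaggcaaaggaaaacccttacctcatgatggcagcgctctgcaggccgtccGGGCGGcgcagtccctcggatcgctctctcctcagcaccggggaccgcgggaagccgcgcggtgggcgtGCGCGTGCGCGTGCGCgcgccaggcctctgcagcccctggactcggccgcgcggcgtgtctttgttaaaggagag
NPC1 held 2 GC boxes, 1 of them at the start of the window and 1 ending 20 bases before the gene start. PMVK held 1 GC box, ending 114 bases before the start. LIPA held the NRF1 site in its GT form in 2 overlapping copies between 25 and 10 bases before its most upstream start. The site was in neither of the other LIPA windows, at chr10:89342640-89342939 and chr10:89251726-89252025. The most upstream window lies wholly outside the annotated span of LIPA, chr10:89213569-89414557. Which LIPA start these cells use was not tested. Of the 40 other pathway genes 32 had a window, and the NRF1 site was found in 2 of them, LIPA and RABGGTA, the second with a log2 fold change of -0.05 (edgeR adjusted p = 0.246).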

How the data were processed

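Polyadenylated RNA of 18 HEK293T libraries, 3 in each of 6 groups, had been made into libraries with a stranded mRNA kit. The authors deposited 1 table of estimated counts by gene, made from reads trimmed with Cutadapt 1.18 and aligned to hg38 with STAR 2.7.0f, as listed with DESeq2 1.46.0 in the processing notes of the submitters. How reads were assigned to genes, and whether strand was used, is not given in the sources used here, so genes that overlap on opposite strands are uncertain. Of the nonzero values 19.6% were not whole. Tests had been planned for whole counts, and the estimates were rounded to whole numbers first. The table has 36 sample columns, of which 18 matched these libraries and the other 18 were not used.

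Counts were filtered (filterByExpr, 17743 of 58870 genes left), scaled by TMM and tested with edgeR 4.0.16 in R 4.3.3. The quasi-likelihood test was used, with Benjamini-Hochberg adjustment over all genes tested. Comparisons within or between editors came from 1 fit over all 6 groups. The comparison over all 3 editors came from a separate fit with a term for the editor. That fit takes the guide effect as equal in all editors, although it differed between editors for some members. Each SE of a log2 fold change is its absolute value divided by the square root of the F of the test. The common biological coefficient of variation was 3.10%, and depth was 28101094 to 40687447 estimated counts per library. The scripts were tested on simulated data. Alternatives were DESeq2 size factors, the DESeq2 1.42.0 Wald test, no filter, a minimum of 1 CPM in 9 libraries, no editor term, a replicate block and each library left out in turn. The members and lists were chosen with earlier results of these data known. Values per library were given for members called in any comparison and for the member with the smallest p in each role, and up to 3 genes were named from each further list. Nothing in the labels says that replicates came from separate cultures, and p-values therefore reflect the spread of these libraries alone, which may be technical.

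Same-numbered SpABE libraries deviated together over 8218 genes of at least 20 CPM (correlations of 0.17, 0.14 and 0.14). Over 10023 genes of at least 10 CPM they did not (-0.06, 0.03 and 0.17), nor did those of SaABE and SpCBE at either minimum in all 3 pairs, and the labels give no source of a pairing.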

Additional observations from a re-analysis of the deposited data

Results flagged for a closer look

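The NRF1-guide effect on 12 members differed between editors in a direct test of the difference, 16 differences in all (edgeR quasi-likelihood test, Benjamini-Hochberg adjustment over all genes tested). Of the 34 members 17.6%, 11.8% and 17.6% passed for SaABE minus SpABE, SaABE minus SpCBE and SpABE minus SpCBE, against 11.7%, 4.09% and 8.96% of all genes, and 5 of the 16 differences passed whichever library was left out. The shares of all genes were not matched to the members for level. Between SaABE and SpABE, the log2 difference of the effects was 0.29 for ELOVL6, 0.17 for CYP51A1, 0.17 for DHCR7 and 0.15 for FADS1, and it was -0.21 for SCAP and -0.13 for SREBF2. Between SaABE and SpCBE it was -0.39 for SREBF1, -0.28 for INSIG1, -0.16 for SREBF2 and 0.20 for ELOVL6, which was lost with no filter, with the DESeq2 Wald test and with the replicate block (adjusted p of 0.158, 0.0938 and 0.0975). Between SpABE and SpCBE it was -0.25 for DHCR7, -0.18 for SCD, -0.16 for FADS1, -0.15 for HMGCS1, -0.14 for FDFT1 and -0.11 for ACLY. Each effect is taken against the editor's own controls, and pairs of editors share libraries. The NRF1 transcript itself also differed in its effect between SaABE and SpCBE, by -0.37 (edgeR adjusted p = 0.00667). It averaged 40.2 and 40.5 CPM with these NRF1 guides, against 32.2 and 25.1 CPM in their controls, so the groups differed in the controls. DHCR7 likewise had 98.9 and 96.1 CPM with the SpABE and SpCBE NRF1 guides, against 109 and 88.9 CPM in controls. ELOVL6 differed in both, at 34.9 and 30.6 CPM in SaABE and SpABE, against 30.2 and 32.5 CPM. The part of NRF1 RNA in the values above was not tested.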

How the results depend on the processing

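The pooled counts depend on the editor term: without it 2 members rose and 4 fell. With no filter, 3 members rose with SpABE, 1 was lower in SaABE than in SpABE, and 0 were higher in SaABE than in SpCBE. The DESeq2 Wald test and the replicate block also gave 0 there, and a minimum of 1 CPM in 9 libraries gave 5 lower. All genes called numbered 420 for SaABE minus SpABE and 219 for SaABE minus SpCBE with no filter, against 277 and 109, and 715 for SpABE minus SpCBE controls with a minimum of 1 CPM, against 1098. The replicate block left 0 members lower in SaABE than in SpABE and 3 lower in SpABE than in SpCBE. With the block SCAP (edgeR adjusted p = 0.0554), MVD (0.0692) and EBP (0.0649), which had not been called, no longer passed over all 3 editors. The block likewise ended the passing of HSD17B7 (0.0628) and SCD (0.0551) with SaABE, neither of them called. It did so with SpCBE for SREBF2 (0.0776), IDI1 (0.0928) and DHCR7 (0.0626), which had not been called either. It changed no member's call with SpABE.

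With each library left out in turn, 9 to 11 members rose and 6 to 8 fell over all 3 editors. With SaABE 3 to 8 rose and 5 to 8 fell, with SpABE 2 to 5 rose and 10 to 14 fell, and with SpCBE 6 to 11 rose and 1 fell each time. Between effects, 1 to 5 were higher and 0 to 2 lower for SaABE minus SpABE, 0 to 1 higher and 2 to 5 lower for SaABE minus SpCBE, and 0 higher and 3 to 10 lower for SpABE minus SpCBE. Between controls, 4 to 5 were higher and 9 to 13 lower for SaABE minus SpABE, 12 to 14 higher and 6 to 9 lower for SaABE minus SpCBE, and 14 to 17 higher and 3 to 6 lower for SpABE minus SpCBE. No member changed direction while past the threshold under these alternatives.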
